A study of Mus musculus with 16 samples.

Results

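The genes described here are 7 that encode secreted antagonists of Wnt signalling, Wif1, Sfrp1, Sfrp2, Sfrp4, Frzb, Dkk2 and Dkk3. They were chosen as the probe sets whose only annotated symbol is 1 of these names, which gave 12 of the 20380 probe sets with 1 symbol and 7 of 12393 genes. RNA of whole mouse skin was measured on 16 Affymetrix Mouse 430 A arrays. Transgenic skin (TG) came from line D2 of K14deltaNB-cateninER mice, in which the keratin 14 promoter, active in basal keratinocytes, drives an N-terminally truncated β-catenin fused to an oestrogen receptor domain that binds 4-hydroxytamoxifen, and it gave 2 arrays at day 0, 3 at day 1 and 3 at day 7 of that drug. Wild-type skin (WT) came from C57BL/6 mice that carry no transgene and received the same drug, and it gave 3 arrays at day 0, 3 at day 1 and 2 at day 7. The background strain of line D2, age and sex were not used here. There was no group given vehicle alone, so drug and passing time cannot be told apart within a genotype. The labels speak of mice for 13 samples and of 1 mouse for 3, without saying whether animals were pooled, so the p-values here reflect the spread among these arrays, part of which may be technical.

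Wnt ligands act on cells through Frizzled receptors and the co-receptors Lrp5 and Lrp6, and in the canonical pathway this stabilises β-catenin, which then works with TCF/LEF factors on target genes. Wif1 and the Sfrp family, to which Frzb belongs, are secreted proteins that bind the ligands themselves, and the Sfrp proteins do so through a domain like that of Frizzled. Dkk proteins of the Dkk2 kind bind the Lrp co-receptors instead, while the action of Dkk3 on the pathway is less clear. β-Catenin signalling is known to drive hair follicle formation and the growth phase of the hair cycle, and Wif1, Sfrp1 and Dkk3 are known as transcripts of the follicle bulge, where stem cells rest. A stabilised β-catenin acts below the ligands and co-receptors that these antagonists bind.

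The tissue and the transgene were checked first. Krt14 of basal and Krt10 of suprabasal epidermis and Col1a1 of dermal fibroblasts were bright on all 16 arrays, at 6119 to 9051, 12015 to 16737 and 7375 to 12231 in scaled intensity. Esr1, whose sequence the fusion carries in part, averaged 405 ± 4.61 in TG skin and 29.0 ± 18.9 in WT skin at day 0 (SD, n = 2 and 3), a log2 difference of 2.88 ± 0.35 (SE, adjusted p = 0.00573, limma). With 1 TG day 0 array left it was not called (2.87 without replicate 1, adjusted p = 0.116, and 2.90 without replicate 2, adjusted p = 0.213), and its adjusted p over all alternatives ran from 5.36e-07 to 0.213. At days 1 and 7 Esr1 averaged 180 ± 111 and 221 ± 33.5 in TG skin, against 32.4 ± 14.9 and 15.8 ± 3.41 in WT skin (SD). Its signal in TG skin was thus not even over the days, and the fall to TG day 1 was called (-1.18 ± 0.35, adjusted p = 0.0448, limma). Intensities are linear values, brought to the same trimmed mean on every array by factors of 0.825 to 1.26, and replicates correlated across probe sets at r = 0.974 to 0.986. Changes are limma estimates on log2(intensity + 32), which makes a change from a low level smaller than the ratio of the intensities. A change was called at an adjusted p under 0.05 over the 13890 probe sets kept by a filter on low values. Precision is limited by the number of arrays.

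Promoters of 4 of the 7 genes, Wif1, Sfrp2, Dkk2 and Frzb, were found in the RefSeq promoter table of build GRCm38.p6, each running from 250 bases before the gene's start to 50 after it. Those of Wif1 and Sfrp2 are shown because, among the kept probe sets of the 7 genes, these had the largest fitted log2 rise to day 7, Wif1 in TG skin, and the largest fall, Sfrp2 in both genotypes. Wif1 lies at chr10:121033754-121034053 and Sfrp2 at chr3:83766071-83766370, both on the plus strand. They are in lower case, 5′ to 3′, and the capitals in Wif1 mark a TATAAA box on the opposite strand.
Wif1: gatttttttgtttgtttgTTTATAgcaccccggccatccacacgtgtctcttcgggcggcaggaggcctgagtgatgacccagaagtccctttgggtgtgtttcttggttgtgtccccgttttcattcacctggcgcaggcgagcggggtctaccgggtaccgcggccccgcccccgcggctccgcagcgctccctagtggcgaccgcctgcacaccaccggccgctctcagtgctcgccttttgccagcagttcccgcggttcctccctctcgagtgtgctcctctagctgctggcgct
Sfrp2: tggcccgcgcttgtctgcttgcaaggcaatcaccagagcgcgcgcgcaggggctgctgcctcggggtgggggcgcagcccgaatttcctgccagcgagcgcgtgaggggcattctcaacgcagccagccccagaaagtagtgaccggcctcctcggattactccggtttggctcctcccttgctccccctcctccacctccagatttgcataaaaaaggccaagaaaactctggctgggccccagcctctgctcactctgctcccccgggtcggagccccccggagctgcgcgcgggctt
Both promoters were rich in CG. The Wif1 window held 25 CG dinucleotides at 63% G+C and the Sfrp2 window 22 at 66%, against medians of 7 and 52.7% over 32851 promoters. The windows of Frzb and Dkk2 held 20 and 11 CG dinucleotides. The TCF/LEF motif CTTTG followed by 2 bases that are each A or T was searched on both strands, and it is in 16.9% of all promoters of this length but in none of these 4 windows. TATAAA, in 13.6% of all promoters, was found at position -232 from the start in Wif1 and at -32 on the gene's own strand in Dkk2, where it is part of the longer TATAAAA that 5.48% of promoters hold. These are descriptions of letters in these windows only.

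Wif1, which binds Wnt ligands outside the cell, rose at day 7 of TG skin, and no rise was called in any other group. Its probe set 1425425_a_at stood at 59.1 and 54.2 on the TG day 0 arrays, at 58.5, 59.0 and 71.9 on the TG day 1 arrays and at 299, 301 and 332 on the TG day 7 arrays. On the WT arrays it stood at 41.8, 38.8 and 54.5 at day 0, at 53.6, 44.5 and 71.2 at day 1 and at 58.7 and 51.2 at day 7. The 3 TG day 7 arrays thus lay above all 13 others, and the other 5 groups overlapped each with its neighbour in the order of means. TG day 7 over TG day 0 was 1.95 ± 0.17 on the log2 scale (SE, adjusted p = 4.51e-07, limma), a ratio of mean intensities of 5.49, and TG over WT at day 7 was 1.98 ± 0.17 (adjusted p = 6.21e-07), a ratio of 5.66. The change in WT skin to day 7 was 0.18 ± 0.17 (adjusted p = 0.537), and the TG change exceeded the WT change by 1.77 ± 0.23 (adjusted p = 0.000157). These ratios are set against dim levels. Wif1 was above the filter level of its array, which ran from 100.7 to 132, on 3 of 16 arrays, all TG day 7, so it entered the test only through the group in which it is high, and the count of genes that passed the filter is no support for a change.

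The genes whose pattern was most like that of Wif1 over the 16 arrays were Krt71, an inner root sheath keratin (Pearson r = 0.983, Spearman rho = 0.535), the aminopeptidase gene Lap3 (r = 0.983, rho = 0.894) and Gli1, a Hedgehog pathway factor and target (r = 0.983, rho = 0.735). All arrays share these values' scaling, and each r is carried by the 3 TG day 7 arrays. Gli1 averaged 932 at TG day 7 against 134 at WT day 7, and Krt71 averaged 9811 against 106. In bulk skin, fewer cells of a type and less RNA per cell cannot be told apart, and likewise more of either. Of 8 hair shaft and root sheath markers, 8 were called higher at TG day 7 than at TG day 0, where 19.3% of all probe sets were. Their summed intensity was 29736 to 44928 at TG day 7, 454 to 617 at TG day 0 and 416 to 463 at WT day 7. With sums this low outside TG day 7, these markers may have passed the filter only through that group. The count of 8 is therefore no support for a change. Of 5 kept dermal papilla markers 2 rose, too few to set apart from the 19.3% over all probe sets. Their sums were 2125 to 2337 at TG day 7, 1091 to 1107 at TG day 0 and 1745 to 1799 at WT day 7. The part of these cell types in the rise of Wif1 or of Sfrp1 was not tested.

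**Figure D1:**
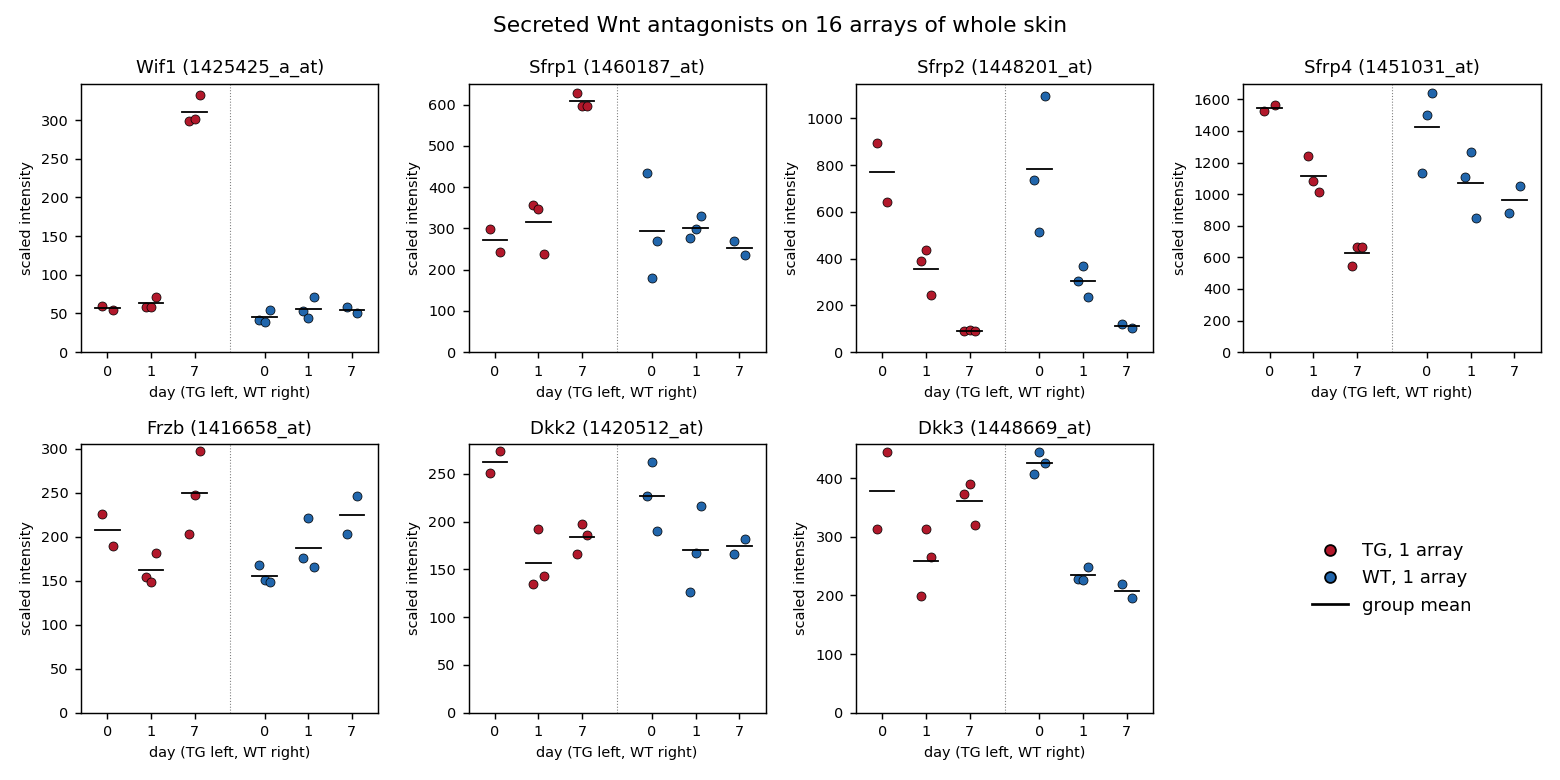
Scaled intensity (linear axes from 0) of the brightest kept probe set of each of the 7 genes on 16 arrays, by day, TG left and WT right; each point is 1 array and each bar a group mean. Wif1 and Sfrp1 stand highest at TG day 7, Sfrp2 goes down from day 0 to day 7 in both genotypes, Sfrp4 is lowest at TG day 7 and Dkk3 is lower at WT day 7 than at TG day 7.

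Sfrp1, another binder of Wnt ligands, was higher at day 7 of TG skin in both of its brighter probe sets. On probe set 1460187_at it read 300 and 243 at TG day 0, 357, 347 and 239 at TG day 1 and 628, 597 and 597 at TG day 7. WT skin gave 434, 180 and 268 at day 0, 276, 297 and 330 at day 1 and 270 and 235 at day 7. The 3 TG day 7 arrays were above all others, whereas the other groups overlapped. TG day 7 over TG day 0 was 1.08 ± 0.24 (SE, adjusted p = 0.00203, limma), a ratio of means of 2.24, and TG over WT at day 7 was 1.17 ± 0.24 (adjusted p = 0.00119). WT skin changed by -0.13 ± 0.24 to day 7 (adjusted p = 0.779), and the genotypes differed in this change by 1.21 ± 0.33 (adjusted p = 0.0184). That last call was lost when arrays were not scaled (1.10, adjusted p = 0.0706), without TG day 0 replicate 2 (1.07, adjusted p = 0.0768) and without WT day 7 replicate 2 (1.12, adjusted p = 0.0691).

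The second Sfrp1 probe set, 1448395_at, was also highest at TG day 7 but varied more elsewhere. It read 191 and 390 at TG day 0, 251, 213 and 347 at TG day 1 and 539, 558 and 562 at TG day 7. WT skin gave 242, 81.8 and 170 at day 0, 363, 476 and 240 at day 1 and 224 and 129 at day 7. TG over WT at day 7 was 1.53 ± 0.35 (adjusted p = 0.00289, limma), a call lost without WT day 7 replicate 2 (1.20, adjusted p = 0.0553). At day 0 TG over WT was 0.73 ± 0.35, which was not called (adjusted p = 0.916, limma). The TG and WT changes to day 7 differed by 0.79 ± 0.49, which was not called either (adjusted p = 0.278). TG day 7 over TG day 0 was 0.93 ± 0.35 (adjusted p = 0.0466). That call was lost in 13 of its 25 alternatives, with adjusted p from 0.0197 to 0.443 and a change of 0.47 without TG day 0 replicate 1. The arrays whose omission ended it were TG day 0 replicate 1, TG day 1 replicates 1 and 2, each TG day 7 array, WT day 0 replicate 3 and WT day 1 replicate 1. This probe set also rose in WT skin to day 1, by 1.04 ± 0.31 (adjusted p = 0.0267), where 1460187_at gave 0.10 ± 0.21 (adjusted p = 0.758). The call at WT day 1 was lost without WT day 0 replicate 2 (0.69, adjusted p = 0.142), WT day 1 replicate 1 (1.01, adjusted p = 0.082) or WT day 1 replicate 2 (0.83, adjusted p = 0.102).

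The other 2 Sfrp1 probe sets differ from each other. 1438620_x_at, whose suffix marks probes that may match other transcripts, passed in none of the 10 comparisons, with group means of 142 to 170 in TG and 168 to 203 in WT skin. 1416594_at was dim and above the filter level on 1 array, with 141, 96.4 and 90.8 at TG day 7 against 9.22 to 60.1 on the other 13 arrays. Its ratio of means was 6.93 for TG day 7 over TG day 0, above that of Wif1, from a level of 15.8 at TG day 0. In a fit with no filter its change from TG day 0 to day 7 was 1.56 ± 0.29 (adjusted p = 0.00114, limma) and the TG change exceeded the WT change by 1.87 ± 0.41 (adjusted p = 0.00853). Over the 16 arrays 1460187_at correlated with 1448395_at at r = 0.691 and with 1438620_x_at at r = -0.148. The genes most like 1460187_at were Bcam (r = 0.937), Zc3h18 (r = 0.926) and Cspg4 (r = 0.923), and Bcam, which encodes a cell surface receptor for laminin, averaged 1286 at TG day 7 against 677 at WT day 7.

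**Figure D2:**
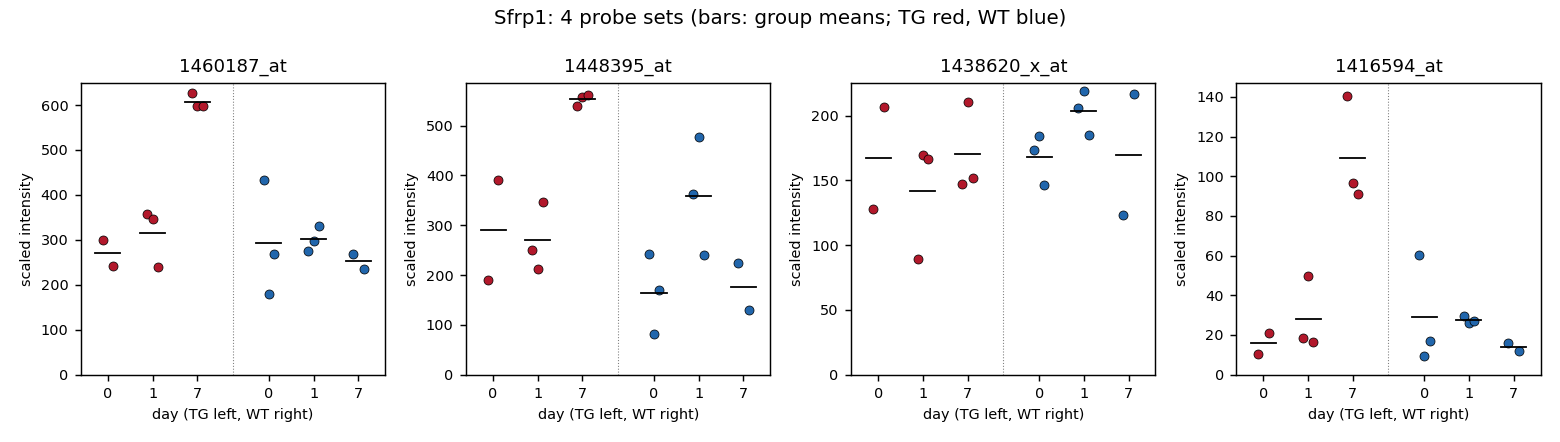
Scaled intensity (linear axes from 0) of the 4 Sfrp1 probe sets on 16 arrays by day, TG left in red and WT right in blue; points are arrays and bars group means. 3 probe sets are highest at TG day 7, with means of 607, 553 and 109, while 1438620_x_at is not, with a mean of 170 at both TG and WT day 7.

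Sfrp2, whose product binds Wnt ligands and is known from dermal fibroblasts, fell in both genotypes. On probe set 1448201_at TG skin gave 895 and 642 at day 0, 390, 438 and 243 at day 1 and 91.5, 94.0 and 89.9 at day 7. WT skin gave 735, 513 and 1097 at day 0, 303, 370 and 236 at day 1 and 121 and 102 at day 7. Within each genotype the 3 days did not overlap, while TG and WT overlapped at day 0 and day 1. The change to day 7 was -2.67 ± 0.27 in TG skin (adjusted p = 2.04e-06, limma) and -2.44 ± 0.27 in WT skin (adjusted p = 7.45e-05), so the TG day 7 mean was 0.119 of that at TG day 0 and the WT day 7 mean 0.143 of that at WT day 0. Part of the fall was present at day 1, with -1.06 ± 0.27 in TG skin (adjusted p = 0.0231) and -1.24 ± 0.24 in WT skin (adjusted p = 0.00276). The TG call at day 1 was lost without TG day 0 replicate 1 (-0.83, adjusted p = 0.161), TG day 0 replicate 2 (-1.29, adjusted p = 0.0697) or TG day 1 replicate 3 (-0.83, adjusted p = 0.0624).

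Between the genotypes no difference in Sfrp2 was called. TG over WT was -0.21 ± 0.27 at day 7 (adjusted p = 0.573, limma), with the 3 TG arrays below both WT arrays, and the changes to day 7 differed by -0.23 ± 0.38 (adjusted p = 0.713). At TG day 7 Sfrp2 was below the filter level of all 3 arrays, so a further fall there would be hard to see. Of 10 dermal fibroblast markers, 3 rose and 3 fell from TG day 0 to day 7, where 19.3% of all probe sets were called higher and 17.1% lower. Their summed intensities were 45272 to 55446 at TG day 7 and 49273 to 51309 at TG day 0. In WT skin 2 rose and 1 fell, where 4.96% of all were called higher and 4.42% lower. The WT sums were 57273 to 63661 at day 7 and 49997 to 57326 at day 0. The markers thus went both ways, and their part in the fall of Sfrp2 was not tested.

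Sfrp2 was most like Per2 (r = 0.945, rho = 0.903), Cpxm2 (r = 0.939) and Per3 (r = 0.934, rho = 0.876) over the 16 arrays. Per2 and Per3 are genes of the circadian clock, and Cpxm2 encodes a secreted protein of the carboxypeptidase family. Per2 averaged 483, 327 and 68.2 at days 0, 1 and 7 in TG skin and 518, 271 and 58.1 in WT skin. Per3 averaged 537, 390 and 205 in TG skin and 614, 377 and 212 in WT skin. All 3 genes thus stood in the same order of days in both genotypes. The hour at which skin was taken was not used here, and its part in the fall of Sfrp2 was not tested.

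**Figure D3:**
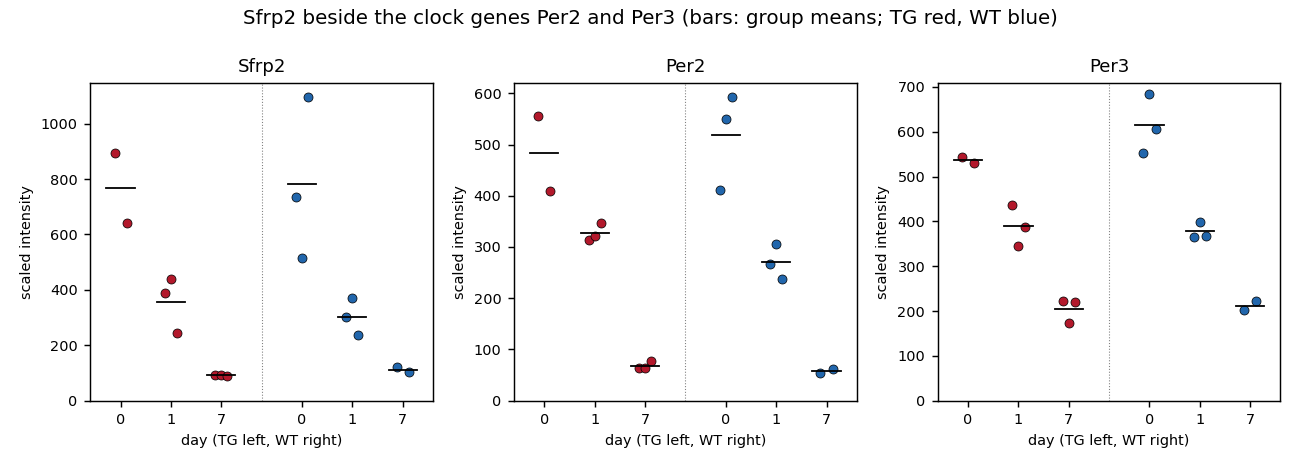
Scaled intensity (linear axes from 0) of Sfrp2, Per2 and Per3 on 16 arrays by day, TG left in red and WT right in blue; points are arrays and bars group means. In each panel the day 7 arrays are lowest in both genotypes, with Sfrp2 means of 91.8 in TG and 111 in WT skin.

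Sfrp4, a further ligand-binding member, fell in TG skin and stood lower there than in WT skin at day 7. Probe set 1451031_at gave 1526 and 1561 at TG day 0, 1243, 1081 and 1012 at TG day 1 and 544, 667 and 664 at TG day 7. WT skin gave 1135, 1498 and 1643 at day 0, 1106, 1266 and 847 at day 1 and 882 and 1049.9 at day 7. The TG day 7 arrays were below all 13 others, and no other neighbours in the order of group means were apart. Against day 0 of their genotype, the TG day 1 and WT day 7 arrays also lay lower, while WT day 1 overlapped. The change to day 1 was -0.47 ± 0.17 in TG skin (adjusted p = 0.0964, limma) and -0.40 ± 0.15 in WT skin (adjusted p = 0.0692). These differed by -0.07 ± 0.23 (adjusted p = 0.913). None of these was called in the main fit. The WT change was called without WT day 0 replicate 1 (-0.55, adjusted p = 0.0211) or WT day 1 replicate 2 (-0.53, adjusted p = 0.0361). TG day 7 over TG day 0 was -1.27 ± 0.17 (adjusted p = 3.27e-05, limma), a ratio of means of 0.405, and -0.54 ± 0.17 in WT skin (adjusted p = 0.0588), which was called without WT day 0 replicate 1 (-0.69, adjusted p = 0.0209) or WT day 1 replicate 3 (-0.54, adjusted p = 0.0372). TG over WT at day 7 was -0.60 ± 0.17 (adjusted p = 0.0111), a call lost when arrays were not scaled (-0.55, adjusted p = 0.165) and without WT day 7 replicate 2 (-0.48, adjusted p = 0.117). The genotypes differed in the change to day 7 by -0.73 ± 0.24 (adjusted p = 0.041), a call lost in 12 of 26 alternatives, with adjusted p from 0.0251 to 0.217. Among these were unscaled arrays (adjusted p = 0.217) and the omission of either TG day 0 array, TG day 7 replicate 1 or 2, WT day 0 replicate 1 or 2, or either WT day 7 array.

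Sfrp4 was most like Rnf225 (r = 0.941), Ackr1 (r = 0.938), an atypical chemokine receptor of venular endothelium, and Vps37a (r = 0.928). Ackr1 averaged 396 at TG day 7 and 960.4 at TG day 0, against 605 at WT day 7 and 829.7 at WT day 0. From TG day 0 to day 7, 17.1% of all probe sets were called lower. Of 5 endothelial markers, 5 fell in this comparison, with summed intensities of 782 to 1003 at TG day 7, 1538 to 1574 at TG day 0 and 1531 to 1714 at WT day 7. Of 3 kept fat cell markers, 3 fell, with sums of 4973 to 6135 at TG day 7, 13158 to 15672 at TG day 0 and 8662 to 13581 at WT day 7. Of 5 skeletal muscle markers 4 fell, with sums of 25977 to 33469 at TG day 7 and 44437 to 49589 at TG day 0. In WT skin none of these 13 markers passed from day 0 to day 7, where 9.38% of all probe sets were called, 4.42% lower. With so low a share, nothing particular to these markers is read from that count. The part of these cell types in the fall of Sfrp4 was not tested.

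Frzb, the Sfrp family member also called sFRP3, moved little. Probe set 1416658_at gave 226 and 189.8 at TG day 0, 155, 149 and 182 at TG day 1 and 203, 247 and 298 at TG day 7, and in WT skin 167, 151 and 149 at day 0, 176, 221 and 165 at day 1 and 203 and 247 at day 7. All neighbours in the order of group means overlapped. Of groups farther apart in that order, TG day 7 lay above TG day 1 (ratio of means 1.54) and WT day 7 above WT day 0 (1.45). TG day 0 lay above TG day 1 and WT day 0. The only called change was TG day 7 over TG day 1, 0.53 ± 0.14 (adjusted p = 0.00677, limma), which was lost when arrays were not scaled (0.51, adjusted p = 0.0842). The changes to day 7 from day 0 were 0.22 ± 0.16 in TG skin (adjusted p = 0.301) and 0.45 ± 0.16 in WT skin (adjusted p = 0.082), and differed by -0.23 ± 0.22 (adjusted p = 0.506). The other Frzb probe set, 1448424_at, was below the filter level on all 16 arrays, at 23.8 to 75.9. Mis12, the gene most like 1416658_at, reached r = 0.824.

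Dkk2, whose product binds the Lrp co-receptors, was lower after 1 day of the drug in TG skin. Probe set 1420512_at gave 251 and 273 at TG day 0, 135, 192 and 143 at TG day 1 and 166, 198 and 186 at TG day 7. WT skin gave 227, 263 and 189.7 at day 0, 126, 167 and 217 at day 1 and 166 and 182 at day 7. In TG skin the day 0 arrays were above those of both later days. In WT skin the day 0 arrays were above those of day 7 and overlapped those of day 1. TG day 1 over TG day 0 was -0.65 ± 0.18 (adjusted p = 0.035, limma), against -0.37 ± 0.16 in WT skin (adjusted p = 0.112; -0.53 and adjusted p = 0.0358 without WT day 1 replicate 3), and the difference of -0.28 ± 0.24 was not called (adjusted p = 0.577). The TG call was lost in 8 of 25 alternatives, among them without TG day 0 replicate 1 (-0.71, adjusted p = 0.0918) or replicate 2 (-0.60, adjusted p = 0.228), and without TG day 1 replicate 1 (-0.57, adjusted p = 0.108) or replicate 3 (-0.60, adjusted p = 0.0735). At day 7 the changes from day 0 were -0.45 ± 0.18 in TG skin (adjusted p = 0.0618, and 0.0295 to 0.0401 in the 4 alternatives that called it) and -0.32 ± 0.18 in WT skin (adjusted p = 0.291). The genotypes' changes of Dkk2 to day 7 differed by -0.13 ± 0.26, which was not called (adjusted p = 0.757, limma). The genes most like Dkk2 were Sema3e (r = 0.878), which encodes a secreted guidance factor, Zfp503 (r = 0.877) and Pter (r = 0.839).

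Dkk3 fell in WT skin by day 1 and by day 7 on its brighter probe set, and in TG skin day 7 was higher than day 1. Probe set 1448669_at gave 313 and 444 at TG day 0, 199, 314 and 265 at TG day 1 and 372, 390 and 320 at TG day 7. WT skin gave 406, 445 and 426 at day 0, 228, 226 and 249 at day 1 and 219 and 195 at day 7. The WT day 0 arrays were above every WT array of the later days, and all 3 TG day 7 arrays were above both WT day 7 arrays. In WT skin the change was -0.78 ± 0.14 to day 1 (adjusted p = 0.00205, limma) and -0.94 ± 0.16 to day 7 (adjusted p = 0.00274). In TG skin it was -0.50 ± 0.16 to day 1 (adjusted p = 0.0646) and -0.05 ± 0.16 to day 7 (adjusted p = 0.841). The fall to TG day 1 was called without TG day 0 replicate 1 (-0.73, adjusted p = 0.0372) or TG day 1 replicate 2 (-0.63, adjusted p = 0.0334). The genotypes' changes to day 1 differed by 0.29 ± 0.21, which was not called (adjusted p = 0.517). TG day 7 over TG day 1 was 0.45 ± 0.14 (adjusted p = 0.0204), a call lost in 6 of 26 alternatives, among them without TG day 1 replicate 1 (0.29, adjusted p = 0.113), TG day 7 replicate 1 (0.42, adjusted p = 0.06) or TG day 7 replicate 2 (0.39, adjusted p = 0.0788). TG over WT at day 7 was 0.71 ± 0.16 (adjusted p = 0.00267), a ratio of means of 1.74. The genotypes differed in the change to day 7 by 0.89 ± 0.23 (adjusted p = 0.0123), a call lost when arrays were not scaled (0.78, adjusted p = 0.184), without TG day 0 replicate 1 (0.66, adjusted p = 0.0753) and without WT day 7 replicate 2 (0.82, adjusted p = 0.0531).

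The second Dkk3 probe set, 1417312_at, correlated with the first at r = 0.828. Its means, like those of the first, were lowest at WT days 1 and 7, but its highest mean was that of TG day 7 and not of WT day 0, and these 2 groups overlapped. It gave 253 and 333 at TG day 0, 153, 192 and 227 at TG day 1 and 322, 260.4 and 313 at TG day 7, and in WT skin 331, 242 and 283 at day 0, 143, 200 and 209 at day 1 and 196 and 174 at day 7. TG over WT at day 7 was 0.61 ± 0.18 (adjusted p = 0.015, limma), which was lost without TG day 7 replicate 1 (0.55, adjusted p = 0.0503) and without WT day 7 replicate 2 (0.53, adjusted p = 0.109). TG day 7 over TG day 1 was 0.58 ± 0.16 (adjusted p = 0.0088), WT day 1 over WT day 0 was -0.56 ± 0.16 (adjusted p = 0.0223) and WT day 7 over WT day 0 was -0.54 ± 0.18 (adjusted p = 0.0691). The call at WT day 1 was lost when arrays were not scaled (-0.49, adjusted p = 0.175), without WT day 0 replicate 1 (-0.46, adjusted p = 0.0803) and without WT day 1 replicate 1 (-0.41, adjusted p = 0.116). That from TG day 1 to day 7 was lost when arrays were not scaled (0.56, adjusted p = 0.0514). TG day 1 over TG day 0 was -0.55 (adjusted p = 0.0664) and was called without TG day 1 replicate 3 (-0.67, adjusted p = 0.0391). The TG and WT changes to day 1 differed by 0.01 ± 0.24 (adjusted p = 0.989). Those to day 7 differed by 0.57 ± 0.25, which was not called (adjusted p = 0.124). The genes most like 1448669_at were Ptprk, a receptor phosphatase (r = 0.902), Stx3 (r = 0.901) and the cholesterol synthesis gene Fdft1 (r = 0.891). Of 8 follicle bulge markers, 2 rose and 3 fell from TG day 0 to day 7 and none rose and 2 fell in WT skin, with sums of 17314 to 18230 at TG day 7, 20910.0 to 23129 at TG day 0 and 18549 to 20431 at WT day 7. Of 6 macrophage markers, 5 rose from TG day 0 to day 1 and none passed from TG day 0 to day 7, while in WT skin 6 rose to day 1 and 5 to day 7. Their sums were 8386 to 9357 at day 0, 13244 to 17591 at day 1 and 7491 to 12122 at day 7 in TG skin, and 8753 to 9951 at day 0, 17471 to 18113 at day 1 and 17555 to 17574 at day 7 in WT skin, and 5 were lower in TG than in WT skin at day 7. Of 6 basal epidermis markers 1 fell to day 1 and 3 to day 7 in TG skin, and 5 fell to day 1 and 1 to day 7 in WT skin. Over all probe sets 5.43% were called higher and 3.51% lower to TG day 1, and 19.3% and 17.1% to TG day 7. In WT skin the shares were 11.4% and 10.1% to day 1 and 4.96% and 4.42% to day 7. At day 7, 17.7% were lower in TG than in WT skin. The lists are short, so their counts are description only. No marker of these lists was at 0, and the part of the 3 cell types in the pattern of Dkk3 was not tested.

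**Figure D4:**
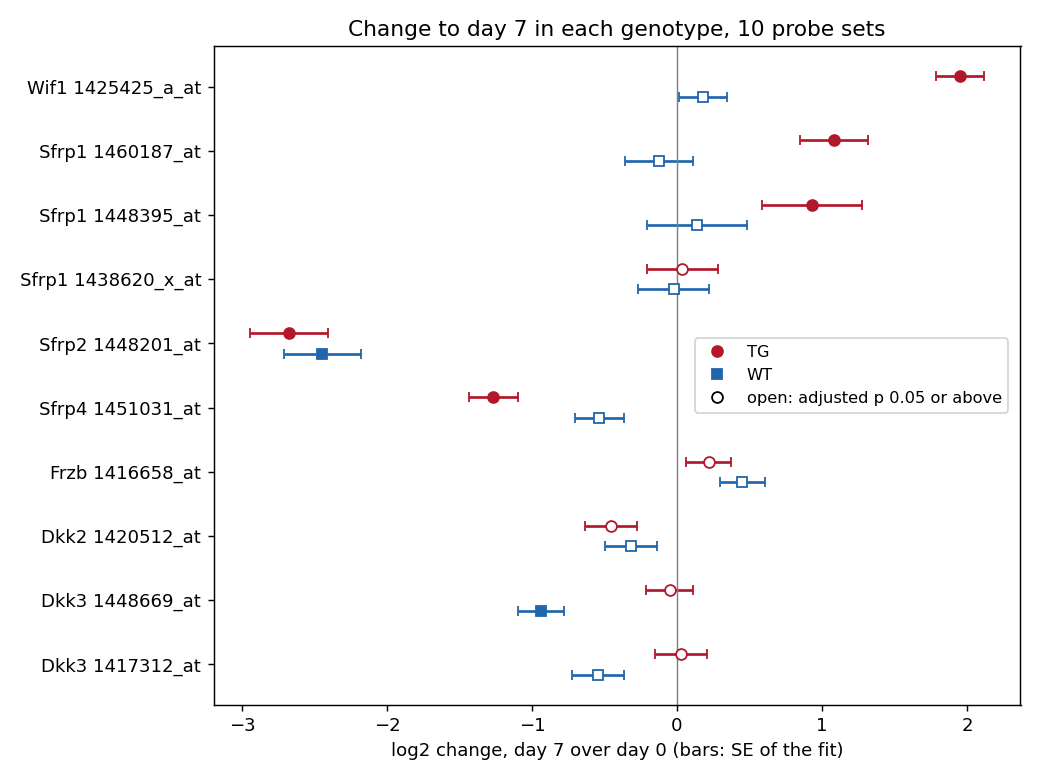
Log2 change from day 0 to day 7 with the SE of the fit as bars, for the 10 kept probe sets of the 7 genes, TG as red circles above WT as blue squares; filled symbols have an adjusted p under 0.05. Wif1 and 2 of 3 Sfrp1 probe sets are filled to the right in TG skin only, Sfrp2 is filled to the left in both genotypes at -2.67 and -2.44, and Dkk3 1448669_at is filled to the left in WT skin only at -0.94.

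Counted together, 10 of the 12 probe sets were kept, and the calls ran in both directions. With 10 probe sets of 7 genes, 1 probe set is a large share, so nothing particular to these genes is read from the counts. From TG day 0 to day 7, 3 rose (Wif1 and 2 of Sfrp1) and 2 fell (Sfrp2 and Sfrp4), where 36.3% of all probe sets were called, 19.3% higher and 17.1% lower. Their median change was 0.03, as was that of all probe sets. From TG day 1 to day 7, 6 rose and 2 fell, where 43.1% of all were called, 23.9% higher and 19.2% lower. The rises there were 1.85 for Wif1, 0.90 and 0.98 for Sfrp1, 0.53 for Frzb and 0.45 and 0.58 for Dkk3, and the falls were -1.62 for Sfrp2 and -0.80 for Sfrp4 on the log2 scale. Of these, 1448395_at of Sfrp1 lost its call without TG day 1 replicate 1 (0.94, adjusted p = 0.0523) or replicate 2 (0.84, adjusted p = 0.0733). From TG day 0 to day 1, 2 fell, Sfrp2 and Dkk2, and none rose, where 8.94% of all were called, 5.43% higher and 3.51% lower. That count was 0 without TG day 0 replicate 2 and 1 without TG day 0 replicate 1, TG day 1 replicate 1 or TG day 1 replicate 3. In WT skin 1 rose and 3 fell to day 1, where 21.5% of all were called, 11.4% higher and 10.1% lower, and 2 were called without WT day 1 replicate 1. To WT day 7, 2 fell, Sfrp2 and Dkk3, and none rose, where 9.38% of all were called, 4.96% higher and 4.42% lower.

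Between the genotypes limma called none of the 10 at day 0, where 0.0072% of all probe sets were called, and 1 of the 10, Frzb, had an unadjusted p under 0.05 (0.35 ± 0.16, adjusted p = 0.916). At day 1 it called none, where 1.08% of all were called, 0.461% higher and 0.619% lower, and 1 had an unadjusted p under 0.05, 1438620_x_at of Sfrp1 (-0.47 ± 0.22, adjusted p = 0.232). At day 7, 5 were higher in TG skin (Wif1, 2 of Sfrp1 and 2 of Dkk3) and 1, Sfrp4, was lower, where 37% of all were called, 19.3% higher and 17.7% lower, and the median difference was 0.36, against 0.04 over all. In the change to day 1 the genotypes differed for none, where 0.367% of all were called, 0.0792% higher and 0.288% lower, and 2 of the 10 had an unadjusted p under 0.05. These were 1416658_at of Frzb (-0.53 ± 0.21, adjusted p = 0.22) and 1448395_at of Sfrp1 (-1.08 ± 0.47, adjusted p = 0.249). In the change to day 7 they differed for 4 probe sets, higher in TG skin for Wif1, 1460187_at of Sfrp1 and 1448669_at of Dkk3 and lower for Sfrp4, where 20.6% of all were called, 10.9% higher and 9.71% lower, and the median difference was 0.32, against 0.01 over all. Without WT day 7 replicate 2, 3 were called between the genotypes at day 7 and 1 in the change to day 7, and 2 were called in that change without either TG day 0 array. The comparisons share arrays. Among the 7 genes the levels of Sfrp2 and Sfrp4 correlated at r = 0.876 (rho = 0.915) over the 16 arrays and those of Dkk2 and Dkk3 at r = 0.670 (rho = 0.662). Wif1 correlated with Sfrp1 at r = 0.841 (rho = 0.556) and with Sfrp4 at r = -0.828 (rho = -0.671). Wif1 was above the filter level only on the 3 TG day 7 arrays, which weigh heavily in its r.

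The other parts of the pathway were read from lists of ligands, receptors, R-spondin module, other inhibitors, intracellular components and target genes, 1 probe set a gene. From TG day 0 to day 7, 3 of 7 kept ligands rose and 1 fell (median 0.14, against 0.03 over all probe sets). Of all probe sets 19.3% were called higher and 17.1% lower in this comparison, and the lists are short, so nothing particular to them is read from their counts. Wnt11 rose by 1.25 ± 0.14 (adjusted p = 5.39e-06, limma), Wnt6 by 0.95 ± 0.13 (adjusted p = 3.75e-05) and Wnt5a by 0.89 ± 0.22 (adjusted p = 0.00562). In WT skin Wnt5a fell by 0.84 ± 0.22 (adjusted p = 0.0277) and was the only ligand called to day 7. Of 11 kept receptors and co-receptors 4 rose, Fzd1 by 0.88 ± 0.17 (adjusted p = 0.00081), and 1, Fzd4, fell by 0.66 ± 0.13 (adjusted p = 0.00102). Of 4 kept genes of the R-spondin module, which tunes the number of Frizzled receptors at the surface, Lgr5 rose by 1.36 ± 0.14 (adjusted p = 3.2e-06) and Lgr6 by 0.80 ± 0.13 (adjusted p = 0.000219).

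Among 8 other kept Wnt inhibitors, 3 rose and 1 fell to TG day 7 (median 0.31). Sostdc1, a secreted inhibitor of both Wnt and BMP signalling, rose by 0.85 ± 0.14 (adjusted p = 0.000245, limma), with means of 2040.1 at TG day 7 and 1117 at TG day 0, against 901 at WT day 7 and 1151 at WT day 0. Dkkl1, a relative of Dkk3, fell by 1.34 ± 0.15 (adjusted p = 5.88e-06), with means of 152 at TG day 7 and 433 at TG day 0, against 350.3 at WT day 7 and 431 at WT day 0. The genotypes differed in these changes to day 7 by 1.19 ± 0.20 for Sostdc1 (adjusted p = 0.000866) and by -1.06 ± 0.21 for Dkkl1 (adjusted p = 0.00253). Of 20 kept intracellular components 5 rose and 3 fell, near the 36.3% called over all probe sets, and Ctnnb1 itself rose by 0.39 ± 0.08 (adjusted p = 0.000931). Of 11 kept target genes 7 rose and none fell (median 1.02), Msx2 by 2.73 ± 0.17 (adjusted p = 2.2e-08), Bambi by 2.39 ± 0.19 (adjusted p = 2.35e-07) and Sox4 by 1.82 ± 0.11 (adjusted p = 2.2e-08). Axin2, a widely used readout of the pathway, averaged 822 at TG day 7 and 738 at TG day 0, a change of 0.15 ± 0.10 that was not called (adjusted p = 0.288). TG over WT was 0.27 ± 0.10 at day 7 (adjusted p = 0.0533, limma) and 0.26 ± 0.09 at day 1 (adjusted p = 0.146), neither of them called. In WT skin Axin2 fell to day 1 by 0.32 ± 0.09 (adjusted p = 0.0223).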

How the data were processed

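Total RNA of whole skin was labelled as biotinylated cRNA and hybridised to the arrays, per the labels' protocols. The deposited values are probe set intensities on a linear scale, 22690 per array, 64 of them controls, while the summary software and scaling are not given in the sources used here. Detection calls and scan dates were not used. Trimmed means (2% off each end) ran from 359 to 548, so each array was scaled to their common value of 452. Gene symbols came from the platform annotation, where 691 probe sets had several symbols and 1555 were not listed, and these were left out. The filter kept 13890 probe sets with 1 symbol whose value exceeded the array's 40th percentile in 2 or more arrays. Values were fitted as log2(intensity + 32) in limma 3.58.1 (R 4.3.3), with 6 group means over all 16 arrays, 10 residual degrees of freedom, empirical Bayes variances with an intensity trend, 10 two-sided comparisons, and Benjamini-Hochberg adjustment over all kept probe sets within each. The fit was tested on simulated data.

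Named are all members with every probe set, the 3 genes most correlated with each member's brightest kept probe set, up to 3 genes of each Wnt list with the smallest p from TG day 0 to day 7, and Esr1, Ctnnb1, Axin2, Krt14, Krt10 and Col1a1. List genes were read from their brightest kept probe set. The members, the lists and the tests were chosen with earlier results of these data known. The alternatives used quantile-normalized or unscaled arrays, 8 or 128 in place of 32, a stricter filter (60th percentile, 3 arrays) or none, the brightest probe set per gene, no intensity trend, only the groups compared, the replicate number as a block, and each array left out in turn. Motifs were searched with Python 3.11.15, and figures drawn with matplotlib 3.10.9.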

Additional observations from a re-analysis of the deposited data

Results flagged for a closer look

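For 4 probe sets the change from day 0 to day 7 differed between TG and WT skin by limma's test of the difference itself. Wif1 differed by 1.77 on the log2 scale (adjusted p = 0.000157), higher in 3 of 3 TG day 7 arrays than in any of the other 13. Wif1 entered the test only through TG day 7, the group in which it is high, so the order of its arrays adds no support. Sfrp1 1460187_at differed by 1.21 (adjusted p = 0.0184), again with 3 of 3 TG day 7 arrays above all others. Dkk3 1448669_at differed by 0.89 (adjusted p = 0.0123), with 3 of 3 TG day 7 arrays above both WT day 7 arrays. Sfrp4 differed by -0.73 (adjusted p = 0.041), with 3 of 3 TG day 7 arrays below all others. The call was lost in 12 of 26 alternatives for Sfrp4 and in 3 of 26 each for Sfrp1 and Dkk3. Other kept probe sets of Sfrp1, 1448395_at (0.79, adjusted p = 0.278) and 1438620_x_at (0.06, adjusted p = 0.928), were not called. Nor was 1417312_at of Dkk3 (0.57, adjusted p = 0.124). The order of arrays at day 7 describes levels and not the change tested. No group had the 4 arrays needed to look for an array far from the others.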

How the results depend on the processing

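Of 57 reported changes, 31 were called, and 16 of these kept their call under every one of the 10 alternatives and 16 left-out arrays in which they could be read, among them all 4 called changes of Wif1. Wif1 did not pass the stricter filter, so its changes could not be read there, and it passed the main filter only through TG day 7. Of 1449 alternative values 1364 kept direction and call, 63 lost the call, 12 gained it and 10 reversed, the last all in changes that were not called. Dkk3 1417312_at to TG day 7 turned to -0.050 with quantile normalization, -0.11 without scaling and -0.029 with the replicate block, and ranged from -0.15 to 0.21 with 1 array left out. With 1 array left out, Dkk3 1448669_at to TG day 7 ranged from -0.28 to 0.18, the difference of Sfrp2 between genotypes in the 7-day change from -0.50 to 0.027, and Sfrp1 1460187_at to WT day 7 from -0.40 to 0.17. The causes were not tested.

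Counts of the 10 probe sets moved as follows. To TG day 1 the count of 2 was 1 with quantile normalization, without scaling, without a filter, with the stricter filter and with only the groups compared, and 0 to 3 with 1 array left out. From TG day 1 to day 7 the count of 8 was 5 without scaling. To WT day 1 the count of 4 was 2 with the brightest probe set per gene, which leaves 1 probe set for Sfrp1 and for Dkk3, and 2 to 5 with 1 array left out. At day 7 between genotypes the count of 6 was 3 to 6 with 1 array left out. For the difference in the 7-day change the count of 4 was 1 without scaling and 1 to 4 with 1 array left out.

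Without scaling fewer of all probe sets were called: 196 against 1242 to TG day 1, 2446 against 5047 to TG day 7, 2762 against 5986 from TG day 1 to day 7, 734 against 2989 to WT day 1, 282 against 1303 to WT day 7, 14 against 150 and 2372 against 5134 between genotypes at days 1 and 7, and 14 against 51 and 812 against 2860 for the differences in change to days 1 and 7. The share higher among calls was 34.7% without scaling against 53.0% with it to TG day 7, 87.1% against 53.0% to WT day 1, 66.3% against 52.9% to WT day 7, 71.4% against 42.7% between genotypes at day 1 and 41.4% against 52.8% for the difference in the 7-day change. For the difference in the 1-day change it was 38.2% with quantile normalization against 21.6%. With only the groups compared, 489 were called to TG day 1, 2 at day 0, 25 at day 1 and 2 for the difference in the 1-day change, which was 7 without a filter, 33 with the stricter filter and 26 with the brightest probe sets. At day 1 between genotypes 91 were called without a filter. With 1 array left out the lowest counts were 249 to TG day 1, 1574 to WT day 1, 325 to WT day 7, 18 at day 1, 0 at day 0 and 0 for the difference in the 1-day change, and 1905 for that in the 7-day change.

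No pairing of samples by replicate number was seen: deviations of same-numbered arrays correlated at -0.243 to 0.223 (median 0.019, 36 pairs), and 6 of 16 arrays correlated best with their own number. With 2 or 3 arrays a group, deviations from a group mean are tied to each other, so this check could miss a pairing. With the replicate block the counts of the 10 probe sets were 2 to TG day 1, 4 to TG day 7, 8 from TG day 1 to day 7, 4 to WT day 1, 2 to WT day 7, 6 between genotypes at day 7 and 3 for the difference in the 7-day change, and 8 of all probe sets were called for that in the 1-day change. Dim levels, as of Wif1 outside TG day 7 and of Sfrp2 at TG day 7, limit what can be read of further falls.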

Other observations

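The dimmer Frzb probe set, 1448424_at, stood in another order of groups than the brighter one. It gave 41.9 to 54.3 at TG day 7 against 56.4 to 75.9 at WT day 7, and 23.8 to 38.0 at TG day 1 against 51.4 to 58.1 at WT day 1. With no filter its difference at day 1 was -0.44 ± 0.13 (adjusted p = 0.108, limma), while 1416658_at gave -0.17 ± 0.14 there (adjusted p = 0.501). All of these levels are below the filter level of their arrays.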
